A study of Mus musculus with 4 samples.

Results

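The genes described here handle calcium stores and read calcium signals: store release channels, calcium pumps, store-operated entry, mitochondrial uptake, calmodulins, calmodulin-dependent kinases, the phosphatase calcineurin, NFAT factors and calcineurin regulators. They were chosen by symbol, as 42 named genes, and 40 of them had a row among the 24689 genes of the deposited table. Ryr2, a ryanodine receptor gene, and Slc8a1, a sodium-calcium exchanger gene, were not analysed here. Of the 40, 36 reached a mean of at least 1 CPM (reads scaled to the library total) over all libraries and were tested, and 4 lay below that level. RNA came from HT-22 cells, an immortalized line labelled as mouse hippocampal neuron, at passages 21 to 24, grown in Eagle's medium. The 2 induced libraries came from HT-22 cells with induced Pja2, titled Pja2-pb. The 2 control libraries came from HT-22 cells that the characteristics call uninduced and the titles call wild type (WT). The labels give neither the means of induction nor whether both groups came from 1 line, so effects of Pja2 and of the line cannot be told apart.

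Calcium enters the cytosol from the endoplasmic reticulum through IP3 and ryanodine receptors and is pumped back by SERCA pumps. When the store empties, STIM proteins in its membrane open ORAI channels at the plasma membrane. Calcium-loaded calmodulin then switches on kinases and the phosphatase calcineurin, which strips phosphate from NFAT factors so that they enter the nucleus. In hippocampal neurons these enzymes are known for their part in synaptic plasticity, with CaMKII alpha as an abundant synaptic protein. The product of Pja2 is a ubiquitin ligase best known for marking parts of the cAMP-dependent kinase for breakdown.

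The libraries held between 25787452 and 35262653 reads in genes. The deposited values are log2(normalized reads + 1), and levels below are normalized reads per library or their mean ± SD with n = 2 per group. Pja2 itself, the check of the labels, had 54830 and 54244 normalized reads in induced libraries, against 6167 and 5881 in control libraries. Most of the neuron markers with a row did not bear out the neuronal label. Of 16 neuron markers, 3 (Tubb3, Syn1 and Dlg4) were tested, 5 others with a row had 0 to 22 reads per library, and 8, among them Rbfox3 and Map2, were not analysed here. Fibroblast markers were far higher as a sum in both groups, with Col1a2 leading. Their summed levels were 8320 and 8306 CPM in induced libraries and 9055 and 7921 CPM in control libraries. Of 7 fibroblast markers 6 were tested, and the sum does not describe each of them. Summed neuron markers reached 105.0 and 121.9 CPM in induced libraries and 130.2 and 108.6 CPM in control libraries. Summed astrocyte markers had 105.3 and 130.6 CPM in induced libraries and 103.9 and 92.5 CPM in control libraries, microglia markers 50.7 and 53.6 against 69.4 and 58.2 CPM, and oligodendrocyte, endothelium and muscle markers at most 5.78 CPM in any library. The fibroblast marker Dcn had 221.8 and 329.2 normalized reads in induced libraries, against 1049 and 764.6 in control libraries, and its part in the results below was not tested. As in any bulk sample, fewer cells of a type and less RNA per cell cannot be told apart.

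Stim1, Atp2b1 and Nfatc1 rose in induced cells and Ppp3cb fell, while the other 32 tested members did not pass the test. Stim1, on chromosome 7, encodes the calcium sensor of the store. Atp2b1, on chromosome 10, encodes a calcium pump of the plasma membrane. Nfatc1, on chromosome 18, encodes a calcineurin-dependent transcription factor, and Ppp3cb, on chromosome 14, a catalytic subunit of calcineurin. None of the 4 has exons that overlap another gene. Exons of Itpr1, Itpr3, Ryr1, Ryr3, Atp2a2, Atp2b4, Atp2c1, Orai1, Camk1, Camk4, Ppp3cc, Ppp3r1, Nfatc3 and Rcan3 do overlap another gene. The test was limma's on the deposited log2 values, with Benjamini-Hochberg adjustment over 13276 genes and a threshold of 0.05. These 4 calls are 11.1% of the tested members, beside 3.42% of all tested genes. The members were chosen with earlier results of these data known, so this difference is no independent evidence. By direction, 3 members were called higher (8.33%, beside 2.08% of all tested genes) and 1 lower (2.78%, beside 1.34%). At an unadjusted p under 0.05 there were 8 members (22.2%, beside 19.1%). In 18 of the 36 members the groups did not overlap, which is 50% of them, beside 51.3% of all tested genes. Of these, 8 were higher (22.2%, beside 26.2%) and 10 lower (27.8%, beside 25.1%). By size, 9 of the 36 members differed by 0.3 or more on the log2 scale, beside 2849 of the 13276 tested genes. The members' range ran from -0.58 for Camk4 to 0.60 for Stim1. Most members lay slightly lower in induced cells, with 27 of 36 below 0, beside 49.6% of all tested genes. Their median log2 fold change was -0.08, beside 0.00 for all tested genes. The labels do not say that replicates were separate cultures, so the p-values measure the spread between these samples, which may be technical.

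**Figure D1:**
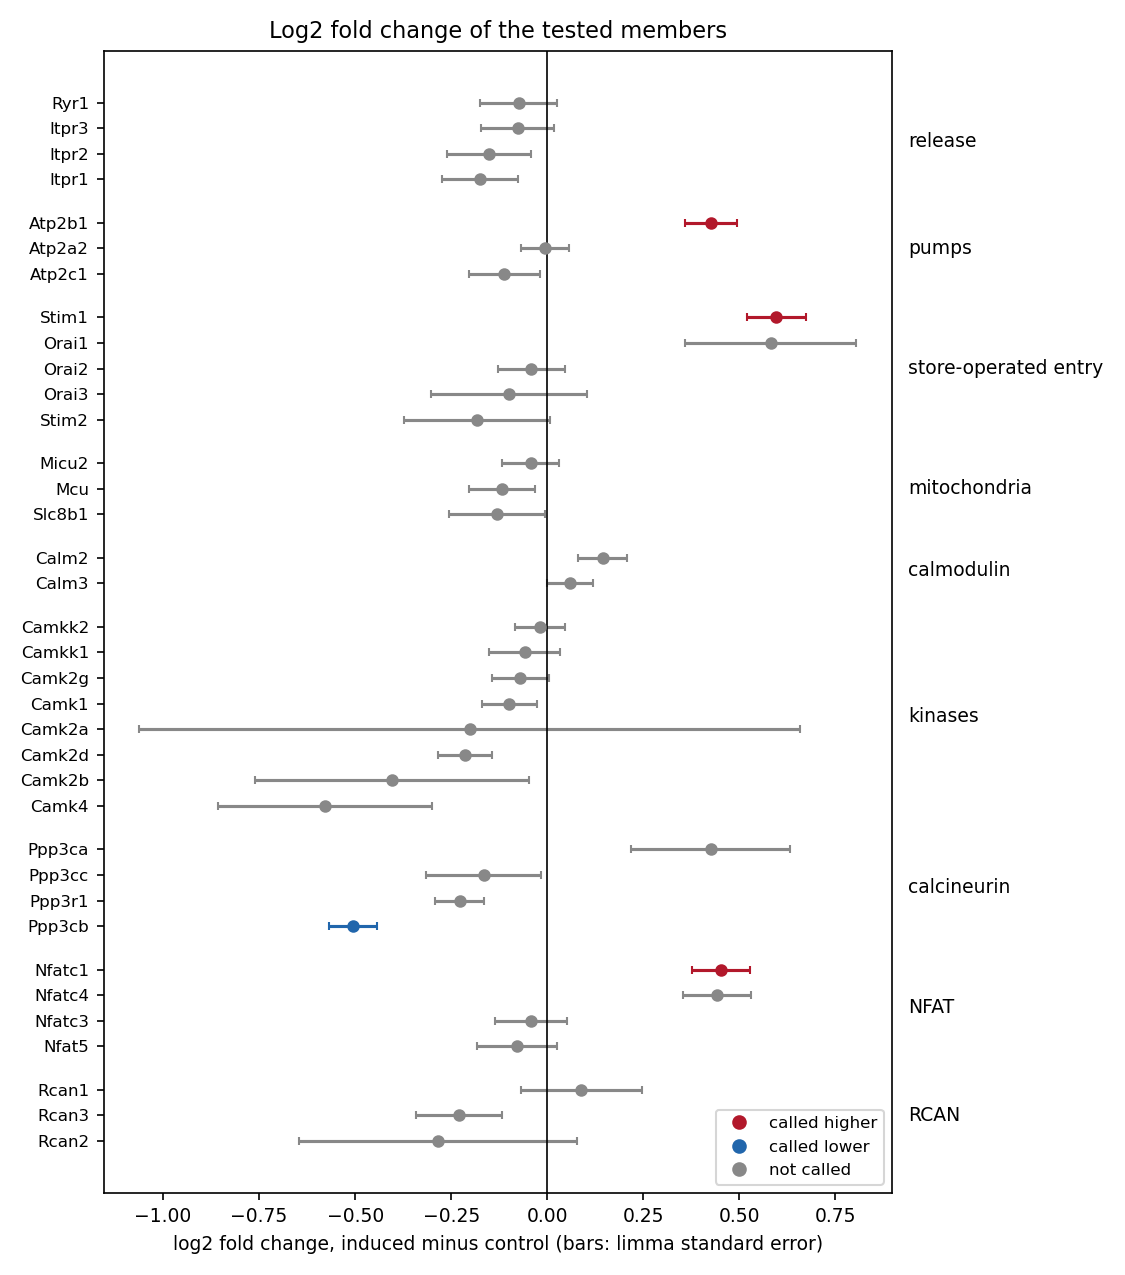
Log2 fold change (induced minus control, x axis) of the 36 tested members, grouped by role from store release at the top to calcineurin regulators (RCAN) at the bottom; bars are limma standard errors. Stim1 (0.60), Nfatc1 (0.45) and Atp2b1 (0.43) were called higher, Ppp3cb (-0.51) was called lower, and the grey points were not called.

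The store release channels showed no called change. Itpr3, an IP3 receptor gene and the one with the most reads, had 9418 and 10803 normalized reads in induced libraries, against 11289 and 10026 in control libraries. Its groups overlapped, with the highest and the second lowest value both in controls (log2 fold change -0.08, SE 0.09, adjusted p = 0.707). The other tested release genes, Itpr1, Itpr2 and the ryanodine receptor gene Ryr1, had log2 fold changes of -0.17, -0.15 and -0.07, and the adjusted p of all 4 ranged from 0.403 to 0.730. Of these 4 tested genes, Itpr1 was the one whose induced libraries (1269 and 1426) both lay below its controls (1606 and 1436), induced replicate 2 by a narrow margin. Ryr1 is best known from skeletal muscle, and its exons overlap 2 predicted genes on the opposite strand. Ryr3 had 0 reads in both induced libraries and 5 and 2 reads in controls, too few to compare.

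Among the pumps, Atp2b1 rose and the store pumps did not pass. Atp2b1 had 7900 and 8229 normalized reads in induced libraries, against 6237 and 5774 in control libraries. Both induced libraries lay above both controls, with means of 8064 ± 233 in induced and 6006 ± 327 in control cells (SD, n = 2 each), a 1.34-fold difference (log2 fold change 0.43, SE 0.07, adjusted p = 0.0353). Its call ended without control replicate 2 (adjusted p = 0.0779), without induced replicate 1 (0.0876) or 2 (0.132), without the filter on low values (0.0769), without the trend in the variance (0.138) and with the replicate block (0.0771). Atp2a2, the ubiquitous SERCA pump gene and the one with the most reads in the group, had 10858 and 11030 in induced libraries and 11341 and 10635 in control libraries. Its 4 values interleaved, with a log2 fold change of -0.01 (SE 0.06, adjusted p = 0.972). Atp2c1, the pump gene of the Golgi, had a log2 fold change of -0.11 (adjusted p = 0.562). Atp2a3, another SERCA gene, had 8 and 19 reads in induced libraries and 22 and 14 in controls. Atp2b4, another plasma membrane pump gene, had 10 and 21 reads in induced libraries and 14 and 10 in controls. Both lay below the filter and overlapped between groups.

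In store-operated entry the sensor gene Stim1 rose, whereas its relative Stim2 did not pass. Stim1 had 1579 and 1628 normalized reads in induced libraries, against 1079 and 1041 in control libraries. Replicates of a group were close and the groups well apart, with means of 1603 ± 34.4 in induced and 1060 ± 27.2 in control cells (SD, n = 2 each), a 1.51-fold difference (log2 fold change 0.60, SE 0.08, adjusted p = 0.0226). The call ended without induced replicate 1 (adjusted p = 0.0648) or 2 (0.0883), without control replicate 2 (0.0570), without the filter (0.0511) and without the trend (0.0766). Stim2, a sensor of small falls in store calcium, had 1254 and 1047 in induced libraries and 1563 and 1081 in control libraries. Replicate 1 was the higher one in both groups, and the log2 fold change was -0.18 (SE 0.19, adjusted p = 0.652). The ratio of Stim1 to Stim2 per kilobase of exon was 1.40 and 1.73 in induced libraries, against 0.770 and 1.07 in control libraries. So Stim1 was the higher of the pair in every library but control replicate 1.

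Orai1, the main pore gene of store-operated entry, had 384.9 and 318.1 normalized reads in induced libraries, against 284.2 and 191.7 in control libraries. Induced libraries lay above controls, but the spread within groups was wide (log2 fold change 0.58, SE 0.22, adjusted p = 0.242). Without control replicate 1 the Orai1 log2 fold change was 0.87, and without control replicate 2 it was 0.30, neither called. Its exons overlap those of the predicted gene Gm2479 on the opposite strand, and the library kit does not mark strand. The other pore genes did not pass, with Orai2 at a log2 fold change of -0.04 (adjusted p = 0.837) and Orai3 at -0.10 (0.833), both with overlapping groups.

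**Figure D2:**
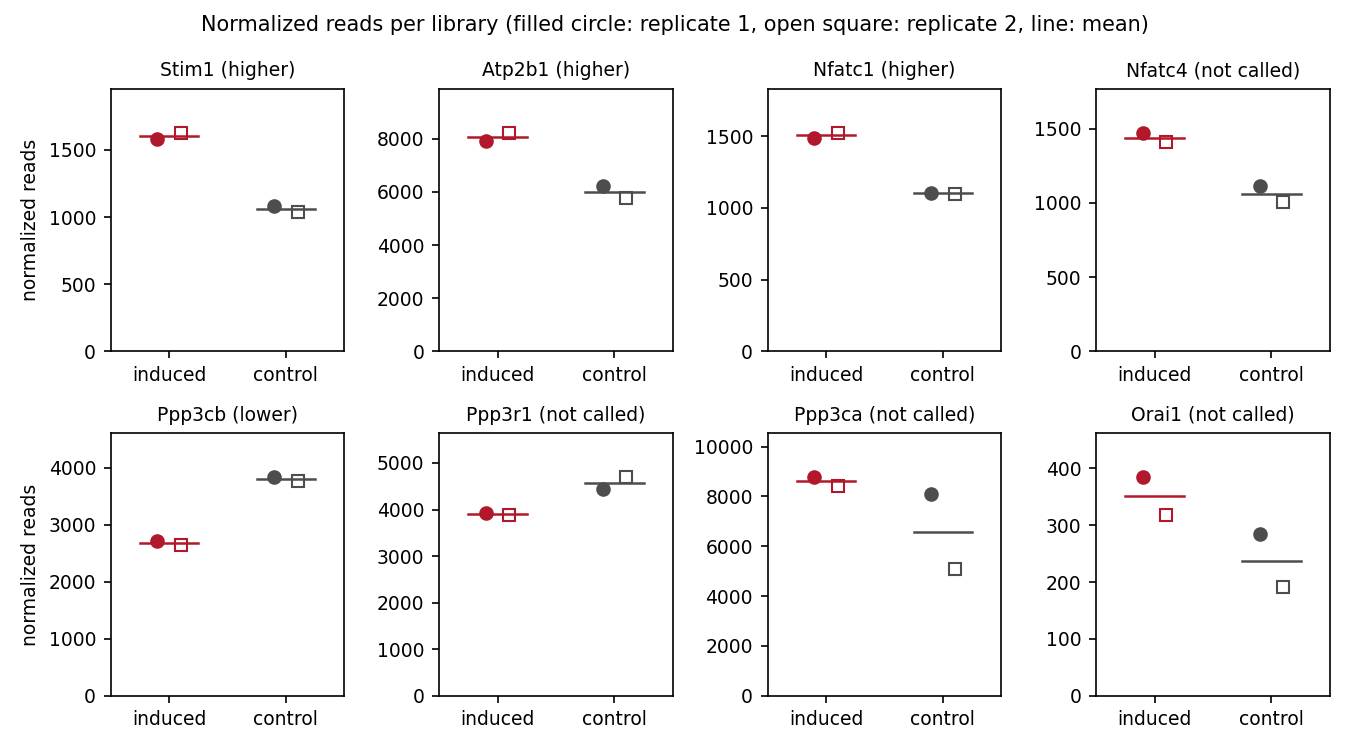
Normalized reads (y axis, from 0) of 8 members in the induced and control libraries; filled circles are replicate 1, open squares replicate 2 and lines the group means. Stim1, Atp2b1, Nfatc1 and Nfatc4 show 2 tight induced values above 2 control values, Ppp3cb and Ppp3r1 the opposite order, while control replicate 2 stands low for Ppp3ca (5068).

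The promoter windows below are those of 3 members that were called, and of Rcan1 as the calcineurin feedback gene that was not. They are RefSeq windows on GRCm38.p6, 250 bases before to 50 after a transcript start, printed on the gene's strand. RefSeq entries matched 31 of the 42 members, in 38 windows. Capitals mark the short CRE core TGACG or its complement CGTCA, a core of the sites bound by the cAMP-responsive factor CREB, and the NFAT core GGAAA or its complement TTTCC. Stim1 lies at chr7:102267569-102267868 on the plus strand, Atp2b1 (the first of 2 starts) at chr10:98914392-98914691 on the plus strand, and Ppp3cb at chr14:20546524-20546823 on the minus strand. Rcan1 (the start inside the gene, 1 of 2) lies at chr16:92400029-92400328 on the minus strand.
Stim1: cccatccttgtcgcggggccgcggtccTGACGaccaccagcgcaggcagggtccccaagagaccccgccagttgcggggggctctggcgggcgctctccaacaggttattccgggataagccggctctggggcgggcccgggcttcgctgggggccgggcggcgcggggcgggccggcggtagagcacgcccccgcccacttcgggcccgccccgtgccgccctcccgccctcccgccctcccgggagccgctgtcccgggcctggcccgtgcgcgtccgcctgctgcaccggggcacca
Atp2b1: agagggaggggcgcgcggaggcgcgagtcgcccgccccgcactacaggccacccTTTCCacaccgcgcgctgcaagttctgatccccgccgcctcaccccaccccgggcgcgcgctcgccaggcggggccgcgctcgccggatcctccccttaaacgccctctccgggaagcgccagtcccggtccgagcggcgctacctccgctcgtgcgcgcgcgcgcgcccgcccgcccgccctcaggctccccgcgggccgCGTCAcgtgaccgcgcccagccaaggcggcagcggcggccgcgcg
Ppp3cb: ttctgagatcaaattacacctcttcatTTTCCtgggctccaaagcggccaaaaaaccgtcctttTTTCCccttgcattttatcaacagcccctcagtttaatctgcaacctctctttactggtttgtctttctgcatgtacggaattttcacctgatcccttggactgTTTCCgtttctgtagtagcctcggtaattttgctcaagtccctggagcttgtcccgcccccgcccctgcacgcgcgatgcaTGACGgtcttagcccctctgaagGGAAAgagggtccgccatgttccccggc
Rcan1: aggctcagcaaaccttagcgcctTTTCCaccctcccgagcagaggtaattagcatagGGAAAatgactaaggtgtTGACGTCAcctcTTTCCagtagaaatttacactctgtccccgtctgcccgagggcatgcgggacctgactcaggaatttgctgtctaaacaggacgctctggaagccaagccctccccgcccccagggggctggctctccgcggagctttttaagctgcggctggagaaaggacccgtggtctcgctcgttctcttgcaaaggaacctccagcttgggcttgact

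Each of these 4 windows holds the short CRE core, but the windows of Atp2b1 and Rcan1 were picked after the matches were seen, and the other window of each gene holds none. The core begins 223 bases before the start in Stim1, 5 bases after it in Atp2b1 and 1 base before it in Ppp3cb. In Rcan1 both strands' copies overlap in the full palindrome TGACGTCA, 175 bases before the start. The short core occurs in 14 of the 38 members' windows (36.8%), beside 20.8% of 32851 windows of all genes, and the palindrome in 1.8% of them. The NFAT core occurs 4 times in Ppp3cb, 3 times in Rcan1 and 1 time in Atp2b1, and not in the Stim1 window. It is common, with 61.3% of all windows and 19 of the members' 38 windows holding it. These matches describe letters only, in genes that rose, fell or were not called alike.

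No mitochondrial calcium gene passed the test. Mcu, the pore gene of the uniporter, had 1577 and 1426 normalized reads in induced libraries, against 1584 and 1672 in control libraries. Induced libraries lay below controls by a small margin (log2 fold change -0.12, SE 0.09, adjusted p = 0.510). Its regulator gene Micu2 had a log2 fold change of -0.04 (adjusted p = 0.796), and Slc8b1, the gene of the mitochondrial sodium-calcium exchanger, one of -0.13 (0.619).

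The calmodulin genes had the highest levels per kilobase of all members and stood slightly higher in induced cells without passing. Calm2 had 15677 and 15025 normalized reads in induced libraries, against 13464 and 14320 in control libraries. Both induced values lay above both controls (log2 fold change 0.14, SE 0.06, adjusted p = 0.294). Calm3, which encodes the same protein, had 9688 and 10125 in induced libraries and 9399 and 9610 in control libraries (log2 fold change 0.06, adjusted p = 0.632). Calmodulin genes have processed copies elsewhere in the genome that can share reads, so these levels are uncertain.

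None of the 8 calmodulin-dependent kinase genes was called. All 8 had a log2 fold change below 0, beside 49.6% of all tested genes, but control replicate 1 held the highest value in 6 of them. Without that library Camk2a (0.69) and Camkk2 (0.0066) lay above 0, and Camk2b (-0.0056) and Camk2g (-0.0034) lay next to it. Camk2g, a CaMKII gene and by a narrow margin the one with the most reads, had 2817 and 2922 normalized reads in induced libraries, against 3153 and 2876 in control libraries. These groups overlapped (log2 fold change -0.07, SE 0.08, adjusted p = 0.662). Camk2d, the other CaMKII gene expressed at a high level, had 2572 and 2714 in induced libraries, against 3156 and 2975 in control libraries. Its groups did not overlap (log2 fold change -0.21, SE 0.07), and it missed the threshold (adjusted p = 0.192). Camk1, the highest kinase gene per kilobase, had 2929 and 2720 in induced libraries, against 3078 and 2967 in control libraries (log2 fold change -0.10, SE 0.07, adjusted p = 0.510). Its groups stood apart by a narrow margin, and its exons overlap those of Ogg1. The upstream kinase genes Camkk1 and Camkk2 had log2 fold changes of -0.06 and -0.02.

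The kinases typical of neurons were at low levels. Camk4, a nuclear kinase that acts on CREB, had 47.8 and 65.8 normalized reads in induced libraries, against 74.2 and 95.8 in control libraries. Induced libraries were lower (log2 fold change -0.58, SE 0.28, adjusted p = 0.330), the lowest log2 fold change among tested members, and the exons overlap another gene on the opposite strand. Leaving out 1 library moved the Camk4 value between -0.80 (without induced replicate 2) and -0.35 (without induced replicate 1). Camk2b had 48.9 and 70.5 in induced libraries and 103.1 and 59.0 in control libraries (log2 fold change -0.40, SE 0.36, adjusted p = 0.589). These overlapped, with control replicate 1 highest, and the Camk2b log2 fold change was -0.0056 without control replicate 1 and -0.80 without control replicate 2. Camk2a, singled out after its values were seen, had 106.6 and 23.2 in induced libraries and 108.1 and 30.5 in control libraries. Replicate 1 was over 3-fold higher than replicate 2 in each group, a larger gap than that between groups (log2 fold change -0.20, SE 0.86, adjusted p = 0.921).

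Calcineurin changed in 1 of its 4 subunit genes. Ppp3cb had 2713 and 2641 normalized reads in induced libraries, against 3838 and 3766 in control libraries. The means were 2677 ± 50.8 in induced and 3802 ± 50.8 in control cells (SD, n = 2 each), a ratio of 0.704 with tight replicates on both sides (log2 fold change -0.51, SE 0.06, adjusted p = 0.0214). The call ended without induced replicate 1 (adjusted p = 0.0567) or 2 (0.0776), without control replicate 1 (0.0550) and without the trend (0.0947).

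Ppp3ca, the catalytic subunit gene with the most reads, had 8780 and 8430 normalized reads in induced libraries, against 8091 and 5068 in control libraries. Control replicate 2 stood apart from the other 3 libraries (log2 fold change 0.43, SE 0.21, adjusted p = 0.332). Without control replicate 1 the Ppp3ca log2 fold change was 0.76 and called (adjusted p = 0.0194), and without control replicate 2 it was 0.09 (adjusted p = 0.545), so its size rested on 1 library. Ppp3r1, the regulatory subunit gene, had 3918 and 3883 in induced libraries, against 4439 and 4699 in control libraries. Its groups did not overlap (log2 fold change -0.23, SE 0.06), but it did not pass (adjusted p = 0.142), and its exons overlap Wdr92 on the same strand. Ppp3cc, a catalytic subunit gene of low level, had a log2 fold change of -0.17 (adjusted p = 0.595).

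Of the NFAT factors, Nfatc1 rose, Nfatc4 did not reach the threshold, and Nfatc3 and Nfat5 stood near 0. Nfatc1 had 1491 and 1525 normalized reads in induced libraries, against 1108 and 1094 in control libraries. Both groups were tight and apart, with means of 1508 ± 23.9 in induced and 1101 ± 9.64 in control cells (SD, n = 2 each), a 1.37-fold difference (log2 fold change 0.45, SE 0.08, adjusted p = 0.0399). This call was the least stable of the 4 and ended without any 1 of the libraries (adjusted p from 0.0923 to 0.176), without the filter (0.0776), without the trend (0.108) and with the replicate block (0.0857).

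Nfatc4, an NFAT factor known from hippocampal neurons, had 1472 and 1408 normalized reads in induced libraries, against 1114 and 1008 in control libraries. Induced libraries lay above controls (log2 fold change 0.44, SE 0.09, adjusted p = 0.0642). Nfat5, the tonicity-responsive factor that does not depend on calcineurin and the gene with the most reads here, had 12254 and 12976 in induced libraries and 14714 and 12036 in control libraries. These overlapped, with control replicate 1 highest (log2 fold change -0.08, SE 0.10, adjusted p = 0.733). Nfatc3 had a log2 fold change of -0.04 (adjusted p = 0.842). Nfatc2 had 0 and 10 reads in induced libraries and 12 and 17 in controls, below the filter.

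The calcineurin regulators did not pass the test. Rcan1, a calcineurin inhibitor gene with transcripts known to be induced by NFAT, had 635.0 and 505.4 normalized reads in induced libraries and 486.7 and 583.4 in control libraries. Its 4 values interleaved (log2 fold change 0.09, SE 0.16, adjusted p = 0.807), and the deposited gene level does not separate its transcripts. Rcan3, the family member with the most reads, had 1356 and 1530 in induced libraries, against 1835 and 1555 in control libraries (log2 fold change -0.23, SE 0.11, adjusted p = 0.335). Induced replicate 2 came close to the lower control. Rcan2 had a log2 fold change of -0.28 with overlapping groups (adjusted p = 0.716).

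Within families, the make-up of the transcripts was compared per kilobase of exon, with lengths from GENCODE M21. Ppp3cb made up 22.6% and 22.9% of the catalytic calcineurin transcripts in induced libraries, against 30.8% and 40.1% in control libraries. Ppp3ca made up 73.1% and 73.1% in induced libraries, against 64.9% and 53.9% in control libraries. Both shifts separated the groups, and the lower Ppp3ca level of control replicate 2 widened them. Stim1 made up 58.4% and 63.4% of STIM transcripts in induced libraries, against 43.5% and 51.8% in control libraries. Among calcium-regulated NFAT genes Nfatc1 held 16.7% and 16.1% in induced libraries, against 12.8% and 14.0% in control libraries. Nfatc4 held 30.1% and 27.1% there, against 23.4% and 23.4% in control libraries, and Nfatc3 the largest share in every library. IP3 receptor make-up was steady, with Itpr3 at 84.6% and 85.0% in induced libraries and 83.9% and 84.0% in control libraries. CaMKII transcripts came mostly from Camk2g, with 69.0% and 69.4% in induced libraries and 66.7% and 67.2% in control libraries, while Camk2a held 0.37% to 1.76%. These shares are descriptions with no test of their own.

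**Figure D3:**
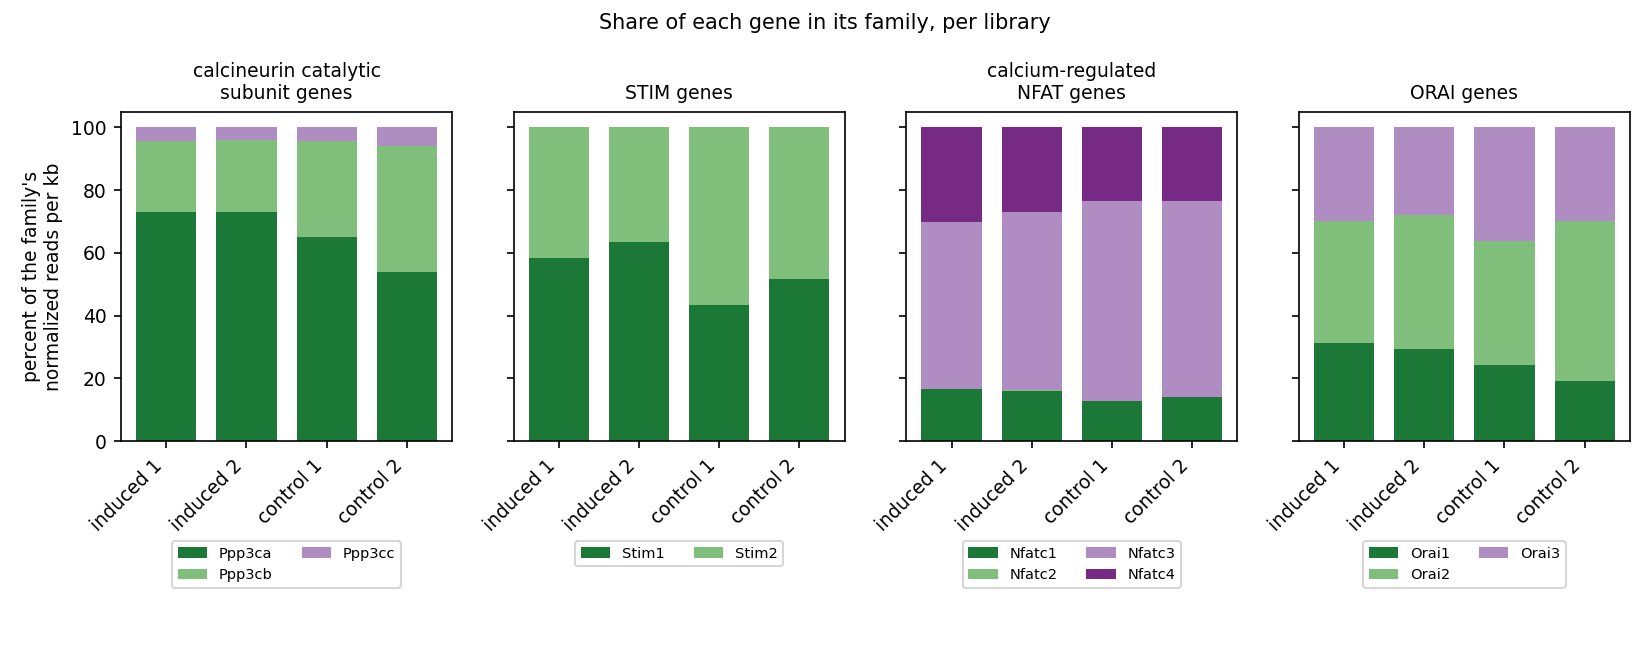
Percent of each family's normalized reads per kilobase (y axis) held by each gene, in the 4 libraries of each panel. Ppp3cb holds a smaller share in induced libraries (22.6% and 22.9%) than in controls (30.8% and 40.1%), and Stim1 a larger one (58.4% and 63.4%, against 43.5% and 51.8%).

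Levels per kilobase spanned a wide range. Calm2 led with 12739 normalized reads per kilobase in induced cells and 11528 in control cells, followed by Calm3 at 4326 and 4150. Atp2a2 (2074 in induced and 2082 in control cells), Camk1 (1888 and 2020), Ppp3ca (1797 and 1374) and Ppp3r1 (1364 and 1598) came next. These 4 form a run in which the library ranges of neighbours overlapped. Within every library, however, Atp2a2 lay above Camk1 and Camk1 above Ppp3ca. Ppp3ca lay above Ppp3r1 except in control replicate 2 (1058 against 1644), so the order of that pair is not resolved. Between Stim1 (rank 21 of 40) and Orai1 (rank 29) each library range also overlapped that of the next gene. Below them the store channel gene Itpr2 had 65.3 in induced and 72.7 in control cells. Camk2a, with 11.5 in induced and 12.3 in control cells, ranked 36, and the 4 members below the filter filled the last places.

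**Figure D4:**
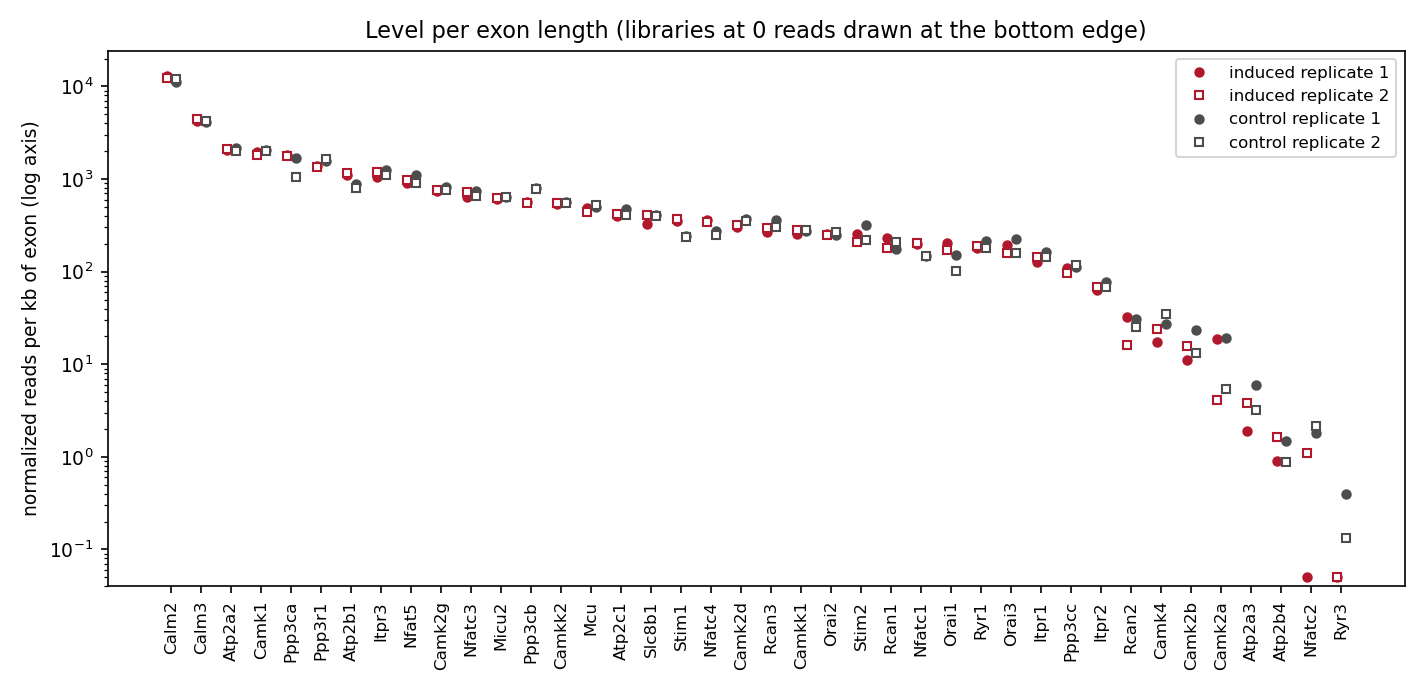
Normalized reads per kilobase of exon (log y axis) of the 40 members with values, ordered by the induced mean, with each library as a point and values of 0 drawn at the bottom edge. Points of a gene lie close together beside the range between genes, from 12739 for Calm2 to 0 for Ryr3 in induced cells (mean values), and Camk2a shows its replicate 1 values above its replicate 2 values in both groups.

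Genes around these members were counted from lists written with earlier results of these data known. Of 5 tested phospholipase C genes, which make IP3, 0 were called by limma and 0 had an unadjusted p under 0.05, with Plcb3 having the most reads (log2 fold change 0.04, adjusted p = 0.820). Of 14 calcium-binding genes of the endoplasmic reticulum lumen 0 were called and 6 had an unadjusted p under 0.05, beside 19.1% of all tested genes at that threshold. Hsp90b1, with the most reads of that list, had a log2 fold change of 0.05 (adjusted p = 0.732). Of 19 regulators of store channels and pumps 0 were called, 2 had an unadjusted p under 0.05 (beside 19.1% of all tested genes), and 15 lay below 0 (beside 49.6%), with a median log2 fold change of -0.08. The one with the most reads was Tmbim6 (-0.07, adjusted p = 0.583).

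Among 11 tested genes tied to the members by family or function, and left out by the choice of genes, Vdac1 fell and none rose. Of the 11, 3 had an unadjusted p under 0.05 by limma, beside 19.1% of all tested genes, of which 1.34% were called lower. Vdac1, a channel of the outer mitochondrial membrane that passes calcium, had 7310 and 7192 normalized reads in induced libraries, against 9558 and 9992 in control libraries. The groups lay apart (log2 fold change -0.43, SE 0.06, adjusted p = 0.0259), and the Vdac1 call ended in 6 of 13 alternatives (adjusted p up to 0.120), among them the omission of control replicate 2 or either induced replicate.

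Of 14 tested partners of calcineurin and NFAT, Gsk3b rose and none fell, beside 2.08% of all tested genes called higher. By limma 2 of the 14 had an unadjusted p under 0.05, beside 19.1%. Gsk3b, a kinase that drives NFAT out of the nucleus, had 7027 and 6960 normalized reads in induced libraries, against 4995 and 4742 in control libraries. Its groups were well apart (log2 fold change 0.52, SE 0.06, adjusted p = 0.0179), and the call ended without either induced replicate and without the trend (adjusted p up to 0.0961). The gene of that list with the most reads, Ppia, which encodes the cyclophilin that carries cyclosporin to calcineurin, had a log2 fold change of 0.08 (adjusted p = 0.594). Of 11 other calcineurin substrate genes 0 were called and 2 had an unadjusted p under 0.05, beside 19.1% of all tested genes. Dnm1l had the most reads of them (log2 fold change 0.27, adjusted p = 0.0817).

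Of 11 other calmodulin-regulated or calmodulin-binding genes Marcksl1 rose and none fell, beside 2.08% of all tested genes called higher. By limma 3 of the 11 had an unadjusted p under 0.05, beside 19.1%. Marcksl1, a calmodulin- and actin-binding protein, had 3089 and 2933 normalized reads in induced libraries, against 1654 and 1616 in control libraries (log2 fold change 0.88, SE 0.07, adjusted p = 0.00698). This difference was larger than that of any tested member and was called in all 13 alternatives. Iqgap1, with the most reads of the list, had a log2 fold change of 0.07 (adjusted p = 0.567). Of 11 EF-hand sensor genes Necab1 fell and none rose, beside 1.34% of all tested genes called lower. By limma 5 of these 11 had an unadjusted p under 0.05, beside 19.1%. Necab1 had 30.4 and 18.5 normalized reads in induced libraries, against 290.5 and 149.5 in control libraries (log2 fold change -3.08, SE 0.41, adjusted p = 0.0236). The 2 induced libraries rested on few reads, its exons overlap Gm11837 on the opposite strand, and the call ended in 3 of 12 alternatives (adjusted p up to 0.0822), 1 of them the omission of control replicate 1. S100a4, the EF-hand gene with the most reads, had a log2 fold change of 0.16 (adjusted p = 0.234). Exons of Plcb3, Hsp90b1, Dnm1l, Iqgap1 and S100a4 also overlap another gene.

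Genes described elsewhere as NFAT targets in immune cells, osteoclasts or neurons were called in 2 of 9 tested cases, both higher, beside 2.08% of all tested genes called higher. Ptgs2, the inducible cyclooxygenase gene, had 4710 and 4364 normalized reads in induced libraries, against 1535 and 1863 in control libraries (log2 fold change 1.42, SE 0.11, adjusted p = 0.00637). Acp5, an acid phosphatase gene of osteoclasts, had 544.8 and 564.8 in induced libraries, against 54.1 and 25.3 in control libraries (log2 fold change 3.87, SE 0.35, adjusted p = 0.00951). Ptgs2 was called in all 13 alternatives, while the Acp5 call ended without the trend (adjusted p = 0.0526), and the exons of Acp5 overlap 6530413G14Rik on the opposite strand. The list was written with earlier results of these data known and is no independent evidence of its direction. The other 7 had log2 fold changes from -0.00 for Egr2 to 0.64 for Mmp9, with a list median of 0.14.

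The slight downward lean of the members changed with the library left out. Control replicate 1 held the highest of the 4 values for 18 of 36 tested members, beside 26.0% of all tested genes. Without it the members' median log2 fold change was -0.00, and without control replicate 2 it was -0.13, against -0.08 with all libraries. Induced replicate 1 held the lowest value for 14 of 36 tested members, beside 25.1% of all tested genes. Without induced replicate 1 the median was -0.055, and without induced replicate 2 it was also -0.055. What lies behind the lean was not tested. The log2 fold changes of the 4 called members stayed within narrow limits, but this is no separate evidence of stability. With so few libraries a call needs close replicates, so omitting 1 library could move these values little. The filter, trend and replicate block settings leave a log2 fold change unchanged by construction. Across the fits made, that of Stim1 ran from 0.57 to 0.62, Atp2b1 from 0.37 to 0.48, Nfatc1 from 0.43 to 0.47 and Ppp3cb from -0.53 to -0.49.

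**Figure D5:**
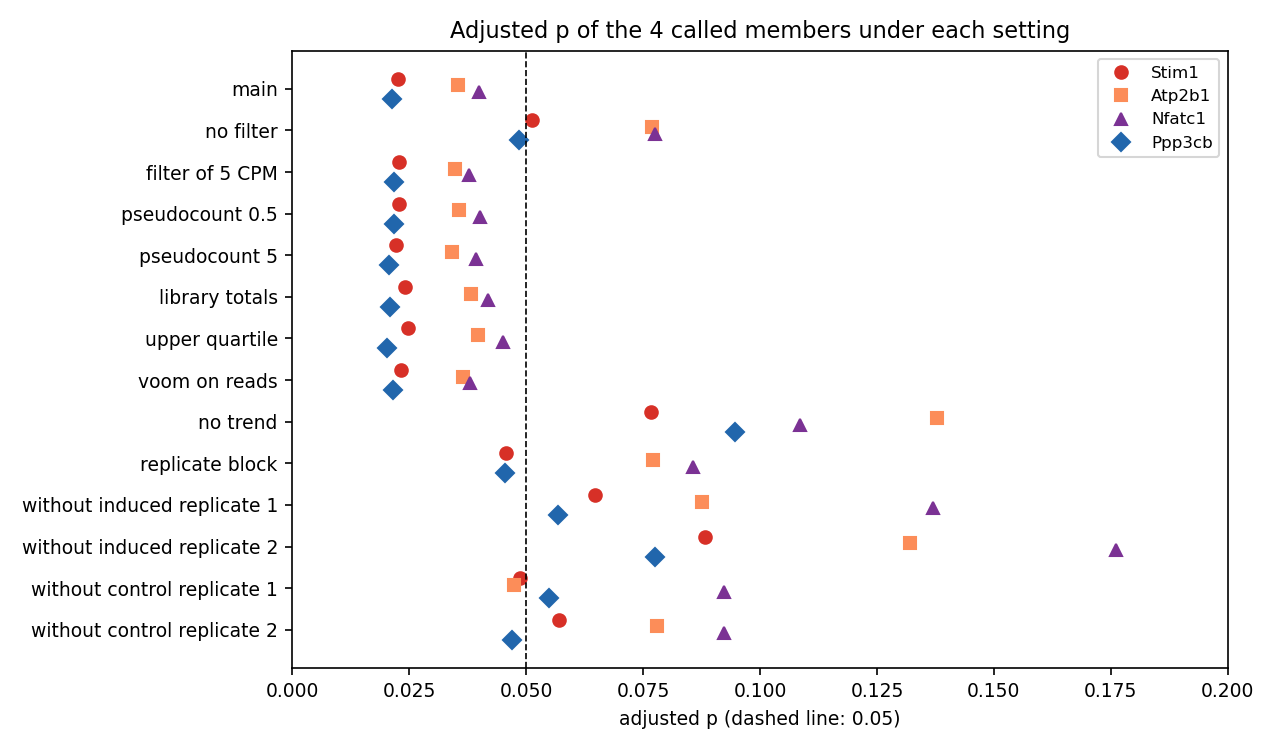
Adjusted p (x axis, dashed line at 0.05) of Stim1, Atp2b1, Nfatc1 and Ppp3cb in the fit reported and in each of 13 alternatives (rows; the first, main, is the fit reported). All 4 pass with other pseudocounts, scalings, the filter of 5 CPM and voom on reads, while 0 of the 4 pass without the trend or without either induced replicate.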

How the data were processed

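RNA sequencing was done on 4 HT-22 libraries, 2 per group. Per the labels' protocols, RNA was taken with Trizol and libraries were made with a TruSeq RNA v2 kit, which does not mark strand. The submitters' processing notes name HISAT, Cufflinks and mm9. How reads were counted and scaled is not given in the sources used here. Deposited values are log2 values, settled from the values as log2(normalized reads + 1): 100% of them came out as whole reads (tolerance 0.01). Columns were matched to samples by their descriptions.

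limma 3.58.1 in R 4.3.3 compared both groups on the deposited log2 values (pseudocount 1, which understates changes of low genes), with a trended variance, no covariate, 2 residual degrees of freedom and a filter of a mean of at least 1 CPM. P-values are two-sided. Fold is the ratio of mean normalized reads. Because the unit is log2, the count check was limma voom on the recovered reads, which called 275 genes higher and 180 lower, beside 276 and 178. The 2 libraries of a group were not copies of each other: a chi-square test of their reads gave 14.1 per gene for induced and 18.4 for control libraries. Exon lengths and overlaps are from GENCODE M21 (GRCm38), not the authors' build, so no gene coordinates are given other than those of the RefSeq windows.

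Members and lists were chosen with earlier results of these data known, and nothing is adjusted over a list alone. Named are called members, the gene of each role with the most reads, those at 0.3 or more on the log2 scale, and in other lists the called genes and the one with the most reads. Alternatives were the filter, pseudocount, scaling, model, replicate block and omission of each library.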

Additional observations from a re-analysis of the deposited data

How the results depend on the processing

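Of 464 refits of the 36 tested members, 421 kept the direction and the side of the threshold, 22 lost a call, 1 gained one and 20 turned the sign. All 22 lost calls fell on the 4 called members, while most of the 421 were uncalled members that stayed uncalled. The 421 are therefore no measure of how stable the calls were. Without the filter 100 genes were called higher and 59 lower, and among members 0 higher and 1 lower. Without the trend it was 64 and 52 genes, and 0 and 0 members. With the replicate block it was 157 and 104 genes, and 1 (Stim1) and 1 (Ppp3cb) members. Differences between replicates 1 and 2 correlated at -0.095 between groups over 13276 genes, so no pairing by number was seen over all genes. Such a correlation cannot settle whether the numbers pair the samples for single genes. Omitting 1 library gave 113 to 204 genes higher and 78 to 136 lower, and 0 to 3 members higher and 0 to 1 lower; such fits have 1 residual degree of freedom and take the lone library to vary like the other group. Scaling by library totals or the upper quartile moved the median of all tested genes to -0.005 and -0.016 and changed no member's call.

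All sign changes came from omitting 1 library, in members that were not called. Those log2 fold changes ran from -0.18 to 0.0222 for Itpr3, -0.20 to 0.0528 for Ryr1, -0.0515 to 0.0413 for Atp2a2, -0.45 to 0.0845 for Stim2, -0.0979 to 0.0148 for Orai2, -0.35 to 0.16 for Orai3 and -1.28 to 0.87 for Camk2a. They also ran from -0.13 to 0.01 for Camkk1, -0.0425 to 0.0066 for Camkk2, -0.13 to 0.0444 for Nfatc3, -0.22 to 0.0671 for Nfat5, -0.0761 to 0.25 for Rcan1, -0.79 to 0.23 for Rcan2 and -0.29 to 0.0337 for Slc8b1. The cause was not tested. With 25.8 to 35.3 reads per CPM, Camk2a, Camk2b, Camk4, Rcan2 and the 4 members below the filter rested on few reads. Whether depth accounts for their spread was not tested.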
